A study of Mus musculus with 6 samples.

Results

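Exonic sense lncRNAs are long transcripts annotated as non-coding that overlap an exon of a protein-coding gene and are read from the same strand as that gene. The study's table of genomic contexts lists 343 such lncRNA probes, among 14717 lncRNA probes counted in the scanner files, and each was paired here with its associated gene by probe identifier and RefSeq accession. The members were selected on measured values: the tables hold only lncRNAs that passed a fold threshold between neonatal and adult testis. All values of this contrast below are therefore a description. A fit across all probes of the array sorted members into called and not called, and those calls support nothing about the members as a set. The question put to the pairs was where an lncRNA and its gene part company, in direction or in size.

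The study compared testes of male C57BL/6 mice at 6 days postpartum (neonatal) and 8 weeks postpartum (adult), kept specific-pathogen free. The sample labels spell the strain C57/BL6. Animals of each age were divided into 3 pooled groups, and total RNA of whole testis was primed with oligo-dT, labelled with Cy3 and hybridised to one-colour arrays, giving 3 neonatal and 3 adult arrays. No other age, genotype or treatment enters the comparison. The number of arrays limits the precision of every value.

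An exonic sense transcript may be an alternative product of its gene, with a retained intron, another start or an early end, or a separate RNA that shares part of an exon. A probe inside the shared exon reads both, whereas a probe in sequence of the lncRNA alone reads the lncRNA. The seminiferous tubules of the neonatal mouse hold spermatogonia and Sertoli cells, and the adult tubules add spermatocytes and spermatids, which transcribe many genes from starts and in splice forms that other cells do not use.

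Values are normalized log2 signals, that is, the log2 of the probe signal over the 75th percentile of its array, and a difference is always adult minus neonatal. All arrays share a floor of -7.22 on the normalized scale, where a signal of 5 lies on adult replicate 3, the dimmest array, and values under it were set to it. Spots that the scanner software marked as non-uniform or as population outliers, here called outlier-marked, were left out. An array missing from a list of values below was left out for that reason. A probe was tested where at least 2 replicate pairs remained, and called where limma gave an adjusted p of at most 0.05 and a fold of at least 5 (2.32 on the log2 scale). Where a probe was well above background on no array of an age, its fold is given as a lower bound. The sequences of the probes were not used here, so whether an lncRNA probe also reads the mRNA could not be told from the values. The labels describe double-stranded cDNA, and whether the labelled material kept the strand of the RNA was not tested.

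The arrays were not alike in quality. The share of outlier-marked spots was 30.7% on neonatal replicate 3 and 25.4% on adult replicate 3, against 9.70% on neonatal replicate 2, 8.29% on adult replicate 1, 6.04% on adult replicate 2 and 10.55% on neonatal replicate 1. Both arrays of replicate 3 thus lost the most spots. Per the file headers they had a scan date of their own, whereas replicates 1 and 2 of both ages shared the other scan date. The 75th percentile of the signal ranged from 745 on adult replicate 3 to 2956 on neonatal replicate 1. Between 50.5% and 58.7% of lncRNA probes and between 73.9% and 78.5% of mRNA probes were well above background on an array. Each scan date covered both ages, and the pair differences below are taken within replicates, so within scan dates. Which arrays lay on the same slide was not read.

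The labelled tissue was checked against marker genes of its cells. All 5 tested spermatid markers of 7 were higher in adult testis, and 2 of 4 tested spermatocyte markers were higher. Of 4 tested spermatogonium markers 2 were lower, and 1 of 2 tested Sertoli cell markers was lower. None of the 3 tested Leydig cell markers, 3 tested peritubular myoid markers, 1 tested macrophage marker and 1 tested red blood cell marker was called, whereas 2 of 4 tested endothelial markers were lower. In whole testis, a change in RNA per cell and a change in the share of the cells that hold it cannot be told apart.

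Each of the 343 members passed the scanner software's limit for a signal well above background on 1 array or more, and 188 passed it on all 6. A further 41 were well above background on all 3 adult arrays and no neonatal array, and 52 on all 3 neonatal arrays and no adult array. After removal of outlier-marked spots 296 members could be tested and 47 could not. Of the tested members 81 were called higher in adult testis, beside 20.0% of all 9396 tested lncRNA probes, and 145 were called lower, beside 9.56% of them. The remaining 70 had a fold under 5. With normexp background correction 53 of 296 tested members were called higher and 45 lower. Without replicate 1 the counts were 52 and 79, and without replicate 2 they were 51 and 73. Replicate 3 then had to supply a value, and 194 and 189 members could be tested. Since the members were chosen on this contrast, nothing is read from these counts. Differences of the higher members ran from 2.45 to 10.84 with a median of 4.28, the same with the 34 lower bounds among them at their bound. Differences of the lower members ran from -5.62 to -2.34 with a median of -2.89, or -2.87 with the 26 bounds at their bound. Over all tested lncRNA probes the median difference was 0.07, and over all 15121 tested mRNA probes it was -0.39.

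The study's own threshold was applied to another scale. In the deposited log2 values all 343 members lay beyond a 5-fold difference, 103 higher and 240 lower, with uc008ydj at Art3 nearest to the threshold on the higher side (2.35) and AK053912 at Ahdc1 nearest on the lower side (-2.33). Under the scaling used here the members just inside were uc008vjw at Eif4g3 (2.45) and AK089140 at Nin (-2.34), and those just outside were AK045234 at Akap10 (2.31) and AK050725 at Tfdp2 (-2.30). The values of the first 3 depend on the floor, since each was well above background at 1 age only.

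Every called member moved in its called direction within each replicate pair where both arrays had a value, which the choice of members favours. For the higher members this was 80 of 80, 80 of 80 and 54 of 54 in replicates 1, 2 and 3. For the lower members it was 141 of 141, 145 of 145 and 81 of 81.

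The 343 members were associated with 333 RefSeq accessions and 326 gene symbols. All 339 members whose accession stood in the reference gene table lay on the chromosome of the gene. Of 273 members whose gene had a strand in the promoter table, 271 were on that strand, as the context requires. The exceptions were AK033270 at Esr1 (mm9, chr10:5674657-5734545, minus strand) and uc008uzj at Nkain1 (mm9, chr4:130168256-130169617, plus strand), and these members are antisense by that table. AK033270 was at least 8.77-fold lower, while the probe of its gene, the estrogen receptor alpha gene, was well above background on 1 array of each age. Its pair difference of -3.23 (SD 2.61) varied from -5.91 to -0.70 between replicate pairs. uc008uzj differed by -2.52 and Nkain1 by -2.50, with a pair difference of -0.02. Both were singled out after their values were seen.

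An mRNA probe of the associated accession was on the array for 298 members, which share 289 such probes, and 45 members had none. Among the 298 pairs the gene was called higher for 33 (beside 12.6% of all tested mRNA probes), called lower for 48 (beside 13.6%), tested and not called for 131, and not tested for 86. Of the 226 called lncRNAs, 141 had a tested gene. The gene was called in the same direction for 52 of these, 21 higher and 31 lower, and in the opposite direction for 4. For the other 85 the gene was not called, with 25 lncRNAs higher and 60 lower. Without replicate 1 or without replicate 2 the gene was called in the same direction for 6 and in the opposite direction for 1. In these settings 28 and 27 genes were not called. Far fewer probes then had values in both remaining pairs, and whether this accounts for the whole fall was not tested. That an lncRNA passed the threshold and its gene did not is no test of a difference between them, and the pair difference below measures it directly.

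The pair difference is the lncRNA difference less the gene difference within a replicate pair, averaged over replicate pairs, and a constant of an array cancels in it. Where either probe was at the floor at 1 age, the pair difference depends on the floor and is no exact size. It could be formed for 180 pairs with both probes tested, 47 of them over 3 replicate pairs and 133 over 2. The gene moved in the direction of its lncRNA in 152 pairs and in the other direction in 28, and in 18 of those 28 the gene difference was under 1. The lncRNA difference was the larger in size in 143 pairs and the gene difference in 37. The pair difference was within 1 in 60 pairs (33.3%). Its median was 2.02 over the 53 pairs with a higher lncRNA and -1.32 over the 127 pairs with a lower lncRNA, so in both directions the typical lncRNA, chosen for a large difference, moved further than its gene. The SD of a pair difference between replicate pairs had a median of 0.32. Across the 180 pairs, which share the 6 arrays and are not independent, the lncRNA and gene differences had a Pearson correlation of 0.64 and a Spearman correlation of 0.56.

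A pair was taken to part in direction where the gene moved the other way by at least 1, and in size where the pair difference was at least 2.32 without that. Of the 180 pairs 10 (5.56%) parted in direction, 48 (26.7%) in size and 122 in neither way. With normexp background correction 22 pairs parted in size. With quantile normalization 52 did, and 38 of these were among the 48. Among the 48, the lncRNA moved further in 42 and the gene in 6. The floor limits these: in 5 of the 6 pairs where the gene moved further the lncRNA difference was only a lower bound, and in 6 of the 42 the gene difference was. This leaves 36 and 1 in which the smaller difference was no such bound. The 36 include AK033270 and Esr1, whose gene probe was well above background on only 1 array of each age.

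The same classes were counted for other contexts of the tables. Of 297 compared exonic antisense pairs 74 (24.9%) parted in direction and 140 (47.1%) in size, with a Pearson correlation of 0.29 across pairs. Of 246 compared intronic sense pairs 13 (5.28%) parted in direction and 32 (13.0%) in size, with a Pearson correlation of 0.58. The Spearman correlation was 0.30 for exonic antisense and 0.40 for intronic sense pairs, beside 0.56 for exonic sense. Called lncRNAs with a gene called in the opposite direction numbered 4 of 141 for exonic sense, 19 of 254 for exonic antisense and 3 of 183 for intronic sense. The contexts also differed in the mix of directions, with 331 higher and 52 lower exonic antisense lncRNAs and 40 higher and 248 lower intronic sense lncRNAs, and the difference between contexts was not tested.

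The pair that the study names is AK011429 with Ccnd2, which encodes cyclin D2, a partner of cyclin-dependent kinases in the G1 phase. AK011429 had normalized log2 signals of 2.09 and 2.33 in neonatal replicates 1 and 2, and -2.96, -2.54 and -1.51 in adult replicates 1, 2 and 3. The Ccnd2 probe had 3.66 and 3.77 in the same neonatal arrays, against -0.44, -0.27 and 0.42 in the adult replicates. Every neonatal value lay above every adult value for both probes. The differences were -4.96 and -4.07, and the pair difference was -0.89 (SD 0.08, 2 replicate pairs), so the pair moved together. With quantile normalization the pair difference was 0.12.

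The largest parting in direction was that of uc007uhg and Defb42, a beta-defensin gene known for expression in the epididymis. uc007uhg had -3.05, -3.08 and -2.49 in the neonatal replicates, against 0.64 and 0.47 in adult replicates 1 and 2. The Defb42 probe had -0.57 and -1.66 in neonatal replicates 1 and 2 and stood at the floor on all 3 adult arrays. Thus the lncRNA was higher in every adult array and the gene in every neonatal array that had a value, without overlap. The lncRNA was 12.3-fold higher, the gene at least 52.8-fold lower, and the pair difference was 9.73 (SD 0.86, 2 replicate pairs), or 10.61 with no common floor and 7.15 with normexp background correction.

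Other markers of the epididymis were read beside the Defb42 probe. Of the 4 markers, Defb42 among them, 3 were tested and only Defb42 was called. With outlier-marked spots kept, the log2 of their summed normalized signal, Defb42 included, was 2.61, -1.40 and 2.70 in the neonatal replicates, against -3.77, -3.86 and -4.46 in the adult replicates. The value of neonatal replicate 3 rests on marked spots, since the Defb42 and Crisp1 spots were both marked there and the other markers were at the floor. Crisp1, a secreted protein of the epididymis, had 2.43 in neonatal replicate 1 and -4.35 in neonatal replicate 2 against -4.23, -4.37 and -5.30 in the adult replicates. Lcn8, a lipocalin of the epididymis, was at the floor on all 6 arrays. Lcn5 had -6.15 in neonatal replicate 1 and was at the floor on the other arrays. Crisp1 was thus high in neonatal replicate 1 and near its adult level in neonatal replicate 2, while the Defb42 probe was high in both. The part of epididymal RNA in the Defb42 values was not tested.

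uc007nro and Mdga2 had the largest negative pair difference of the pairs that parted in direction, as processed here. Mdga2 encodes a membrane-anchored adhesion protein known from synapses. uc007nro had -2.85, -2.86 and -2.08 in the neonatal replicates, against -6.07, -6.44 and -5.75 in the adult replicates. The Mdga2 probe had -6.24, -6.33 and -5.40 in the neonatal replicates, against -0.74, -1.50 and -0.77 in the adult replicates. Neither probe's groups overlapped, and the lncRNA was high where the gene was low. The differences were -3.49 and 4.99, with a pair difference of -8.47 (SD 0.22, 3 replicate pairs). With normexp background correction it was -4.46, smaller in size than that of Stambpl1 below (-6.04). A second member at this gene, uc007nrn, which is paired with another accession that has no probe, was at the floor on all neonatal arrays and had -5.64, -5.76 and -5.33 in the adult replicates, at least 2.93-fold higher.

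The promoters of these genes are shown because Defb42 and Mdga2 had the largest pair differences among pairs that part in direction, one each way, as processed here, and each has a single start in the promoter table. They are RefSeq sequences of build GRCm38.p6, from 250 bases before to 50 after the start: chr14:63046741-63047040 on the plus strand for Defb42 and chr12:67222500-67222799 on the minus strand for Mdga2. Both strands were searched for TGACG, the half-site of the cAMP response element used by CREM in spermatids, and for TATAAA of the core promoter. TGACG occurs in 20.8% of the 32851 promoters of the table and TATAAA in 13.6%. Capitals mark TGACG, found at 1 place in the Mdga2 promoter and at none in that of Defb42, and neither holds TATAAA. A match describes the letters only.
Defb42: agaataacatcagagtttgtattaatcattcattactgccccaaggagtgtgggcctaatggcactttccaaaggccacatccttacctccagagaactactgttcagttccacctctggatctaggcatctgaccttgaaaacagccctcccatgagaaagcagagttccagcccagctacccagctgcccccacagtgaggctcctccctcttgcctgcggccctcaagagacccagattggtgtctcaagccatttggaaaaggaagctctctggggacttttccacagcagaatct
Mdga2: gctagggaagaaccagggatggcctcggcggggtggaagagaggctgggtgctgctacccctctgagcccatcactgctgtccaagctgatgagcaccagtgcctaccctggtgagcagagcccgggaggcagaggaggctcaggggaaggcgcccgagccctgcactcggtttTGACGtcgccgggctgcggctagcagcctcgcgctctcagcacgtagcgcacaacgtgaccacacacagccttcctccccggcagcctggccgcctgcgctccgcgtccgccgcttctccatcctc

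Stambpl1, which encodes a deubiquitinase of the ubiquitin pathway, was another gene called against its lncRNA. AK020229 had -0.59 and -0.44 in neonatal replicates 1 and 2 and -4.66, -5.09 and -4.67 in the adult replicates. Its gene had 1.09 and 1.22 in the same neonatal replicates, against 3.88 and 3.82 in adult replicates 1 and 2. The lncRNA was 20.5-fold lower and the gene 6.46-fold higher in adult testis, with no overlap, and the pair difference was -7.05 (SD 0.28, 2 replicate pairs).

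Hdac9 encodes a histone deacetylase that acts with transcription factors of muscle and nerve. Its lncRNA uc007niz was at the floor on all 3 neonatal arrays and had -4.12 and -3.96 in adult replicates 1 and 2. The Hdac9 probe had -0.41, -0.37 and 0.60 in the neonatal replicates, against -3.43, -3.12 and -2.10 in the adult replicates. The lncRNA was thus read in adult arrays alone and was at least 8.50-fold higher, while the gene was 7.08-fold lower, and the pair difference, taken with the floor, was 6.07 (SD 0.09, 2 replicate pairs). With no common floor it was 7.52 and with normexp background correction 4.37.

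In the other 6 pairs that parted in direction the gene moved by at least 1 but was not called. uc008dgi was 2.72 higher while Rab31, a GTPase of vesicle traffic, differed by -2.07, a pair difference of 4.79 (SD 0.39, 3 replicate pairs). uc009bje differed by -3.08 while Creb3l2, a transcription factor of the endoplasmic reticulum membrane, was 1.06 higher, a pair difference of -4.14 (SD 0.22, 3 replicate pairs). The Creb3l2 difference fell under 1 with quantile normalization (0.57), in the deposited log2 values (0.79) and without replicate 1 (0.98), so that pair did not part in direction under those settings. AK165095 differed by -2.45 and the zinc finger gene Zfp606 by 1.49, with a pair difference of -4.12 (SD 0.24, 2 replicate pairs).

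The last 3 of them had an uncalled lncRNA as well. uc007cpy was at the floor on every neonatal array and had -5.68, -5.55 and -5.75 in the adult replicates, at least 2.77-fold higher, while Plekha6, a gene with a pleckstrin homology domain, differed by -2.28. AK013575 was at least 4.22-fold lower, while Lias, the lipoic acid synthase of mitochondria, was 1.47 higher. AK170049 differed by -2.23 and Tex261 by 1.35. Their pair differences were 3.89 (SD 0.05), -3.70 (SD 0.35) and -3.57 (SD 0.78) in that order, each over 2 replicate pairs. The first was 5.85 with no common floor, and with normexp background correction the pair difference of AK013575 and Lias was -1.93.

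AK006765 and Vit had the largest pair difference of the pairs that parted in size under the common floor. Vit encodes vitrin, a protein of the extracellular matrix. AK006765 had -5.98, -6.20 and -5.75 in the neonatal replicates, against 4.76 and 4.74 in adult replicates 1 and 2, the largest difference of any tested member (10.84). The Vit probe had -0.76 and -0.64 in neonatal replicates 1 and 2 and 1.06 and 1.24 in adult replicates 1 and 2. Both were higher in adult arrays without overlap, the lncRNA 1831-fold and the gene 3.61-fold, and the pair difference was 8.99 (SD 0.10, 2 replicate pairs).

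At a pair of cell division genes the lncRNA moved much further than the gene. Ncapg encodes a subunit of condensin, which compacts mitotic chromosomes. AK015432 was at the floor on the neonatal arrays and had -0.49 and -0.51 in adult replicates 1 and 2, whereas Ncapg had -3.23, -3.38 and -3.11 in the neonatal arrays, against -3.80, -3.52 and -3.78 in the adult replicates. The lncRNA was at least 98.8-fold higher, and its gene differed by -0.46 with groups that did not overlap, a pair difference of 7.08 (SD 0.32, 2 replicate pairs) taken with the floor. With no common floor it was 9.37, above the 8.99 of AK006765 and Vit, with quantile normalization it was 8.66 against 8.52, and with normexp background correction 5.31. Diaph3 encodes a formin that nucleates actin filaments. uc007uuc had -1.92 and -1.85 in neonatal replicates 1 and 2 and 3.84 and 3.68 in adult replicates 1 and 2, while the Diaph3 probe went from -1.19 and -1.35 to -0.24 and -0.37 in the same arrays. The lncRNA difference of 5.64 exceeded the gene difference of 0.96 by 4.68 (SD 0.18).

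The lncRNA also moved further than its gene at 4 other genes. AK079918 was 71.7-fold higher in adult testis and Ppp1r10, a nuclear regulatory subunit of protein phosphatase 1, was 1.64-fold higher, with a pair difference of 5.45 (SD 0.23). uc008crv had -2.64, -2.50 and -2.78 in the neonatal arrays, against 2.77, 2.53 and 2.90 in the adult replicates, while Gtpbp2, a GTPase that rescues stalled ribosomes, differed by 0.42. That pair difference was 4.80 (SD 0.41). uc009mvj was 6.59 higher and Gnao1, a G protein alpha subunit, 2.03 higher, a pair difference of 4.44 (SD 0.15). AK162444 was 3.76 higher and Nav2, a neuron navigator gene, differed by -0.57, a pair difference of 4.41 (SD 0.16). Each of these 4 was taken over 2 replicate pairs.

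The gene appeared to move further than the lncRNA at Catsperb, Tmigd3 and Antxrl, and there the floor set the lncRNA value and the pair differences are not exact sizes. Catsperb encodes an auxiliary subunit of the calcium channel of the sperm tail, and both its probe and AK040480 stood at the floor on all neonatal arrays. AK040480 had -5.39, -2.23 and -2.80 in the adult replicates and the gene 3.84 and 4.04 in adult replicates 1 and 2. The lncRNA was at least 12.6-fold and the gene at least 2145-fold higher, so the value of -7.75 (SD 2.09) rests on adult signals alone and does not order the 2 changes. AK016304, listed with Adora3 and paired by accession with Tmigd3, which shares that locus, was at least 18.0-fold higher beside a gene difference of 11.63, and the value of -7.07 (SD 1.06) has the same limit. uc007tah was at least 3.50-fold higher beside a gene difference of 6.98 at Antxrl, giving -5.20 (SD 0.24).

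Zpbp2, which encodes a protein of the acrosome, was the 1 gene that moved further among pairs that parted in size with an lncRNA measured at both ages, and it was singled out after its values were seen. AK137467 had -5.66, -5.44 and -6.00 in the neonatal replicates, against -0.61 and -0.87 in adult replicates 1 and 2. The Zpbp2 probe had -2.29 and -2.40 in neonatal replicates 1 and 2 and 5.54 and 5.61 in adult replicates 1 and 2. Both were higher in adult arrays without overlap, by 4.81 and 7.92, and the pair difference was -3.11 (SD 0.47, 2 replicate pairs).

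Of 24 members at genes of sperm and cilia 21 were tested, 19 were called higher (beside 20.0% of all tested lncRNA probes), none was called lower with limma (beside 9.56%) and 2 were not called. Of 12 tested genes 11 were called higher (beside 12.6% of all tested mRNA probes) and none lower (beside 13.6%). Nothing is read from these counts or from those of the lists below, since the lncRNAs were selected on this contrast. The median difference was 4.83 for the lncRNAs and 6.44 for the genes, both unchanged with bounds at their bound, and 2 of 9 compared pairs parted in size (Catsperb and Zpbp2) and none in direction.

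Rfx2 encodes a transcription factor of ciliary and spermatid genes. AK017377 had -5.93, -6.19 and -5.73 in the neonatal replicates, against 0.57 and 0.54 in adult replicates 1 and 2, and Rfx2 had 0.66, 0.95 and 1.46 in the neonatal replicates, against 6.32 and 6.49 in adult replicates 1 and 2. Both groups stood apart for both probes, and the differences of 6.61 and 5.60 gave a pair difference of 1.01 (SD 0.25), which changed sign with quantile normalization (-0.68) and with normexp background correction (-0.43). Catsper2, a pore subunit of the sperm calcium channel, was 4.54 higher and its lncRNA uc008lyy 3.74 higher, a pair difference of -0.79 (SD 0.18), or -1.76 with normexp background correction. uc007cfw at Slco6d1, a transporter gene without a probe of the paired accession, was at the floor on the neonatal arrays and had 0.47, 0.44 and 1.14 in the adult replicates, at least 225-fold higher. uc009cxi at Cfap100, a gene of the cilium and flagellum, was 168-fold higher. Both members not called were lower in adult testis: BC037747 at Ccdc136, an acrosome gene, differed by -2.06, and AK083217 at Iqcc was at least 2.74-fold lower.

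The counts of the other lists stand beside the same shares, 20.0% higher and 9.56% lower of all tested lncRNA probes and 12.6% higher and 13.6% lower of all tested mRNA probes. At cell cycle and DNA repair genes 3 of 13 tested lncRNAs were higher and 5 lower, and 1 of 11 tested genes was higher and 3 were lower. At transcription regulators 1 of 20 lncRNAs was higher and 10 lower, and 2 of 16 genes were higher and 3 lower. At receptors, ligands and adhesion receptors 3 of 19 lncRNAs were higher and 14 lower, and 2 of 12 genes were higher and 3 lower. At matrix and cytoskeleton genes 11 of 16 lncRNAs were lower, with 3 of 8 genes lower, and no lncRNA or gene was called higher with limma. At chromatin genes 2 of 14 lncRNAs were higher and 10 lower, and 5 of 8 genes were lower. At RNA processing and translation genes 2 of 15 lncRNAs were higher and 11 lower, and 1 of 11 genes was higher and 3 lower. At genes of the ubiquitin and SUMO pathway 1 of 10 lncRNAs was higher and 6 lower, and 1 of 7 genes was higher. At ion channels and transporters 3 of 11 lncRNAs were higher and 5 lower, and 1 of 7 genes was higher.

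Matrix and cytoskeleton genes gave the largest lower difference of any tested member. AK046232, at the protease inhibitor gene Serpine2, had -0.11 and 0.25 in neonatal replicates 1 and 2 and -5.25, -5.85 and -5.17 in the adult replicates, 49.3-fold lower, and its gene could not be tested. Every neonatal value stood above every adult value. uc008elz at Ctnna1, which encodes alpha-catenin of cell junctions, was 21.5-fold lower and its gene 2.47-fold lower, a pair difference of -3.45 (SD 0.03, 2 replicate pairs). AK014755 at Cald1, the actin-binding protein caldesmon, had -2.12, -2.04 and -1.10 in the neonatal arrays, against -5.81, -5.63 and -4.56 in the adult replicates. The gene differed by -2.30 and was not called, and the pair difference was -1.33 (SD 0.04). AK044510 at Lama1, a laminin chain of basement membranes, differed by -3.20 and its gene by -2.66, with a pair difference of -0.44 (SD 0.26). With normexp background correction the pair differences at Cald1 and Lama1 became 0.28 and 0.67, and that at Ctnna1 became -0.88 and no longer parted in size. With quantile normalization the Ctnna1 value was -2.27, also short of the limit of 2.32 in size.

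Among transcription regulators, AK028267 differed by -4.20 and its zinc finger gene Zfp827 by -1.54, a pair difference of -2.66 (SD 0.09) that parted in size, but not with normexp background correction (-2.24). uc007lmk at Stat5b, a transcription factor of cytokine and hormone signalling, had -0.61, -0.52 and 0.10 in the neonatal arrays, against -4.51, -4.42 and -3.85 in the adult replicates, 15.1-fold lower, and its gene could not be tested. From the list of chromatin genes, uc008osm at Hltf, a helicase-like DNA translocase, was at least 8.16-fold lower and its gene differed by -1.83. The pair difference was -2.00 (SD 0.43), or 0.020 with normexp background correction. It was past the limit for parting in size with quantile normalization (-2.81) and no common floor (-2.70).

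Among receptors and ligands, uc009axe lay at Tac1, which encodes the precursor of substance P. Both probes were at the floor on all neonatal arrays, and in the adult replicates the lncRNA had -1.85, -1.74 and -2.34 and the gene -3.18, -3.33 and -3.86. The lncRNA was at least 35.5-fold and the gene at least 12.7-fold higher, and which moved further could not be told. AK035091 at the orphan receptor gene Gpr45 was at least 10.1-fold lower, and its gene probe was well above background on no array.

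At RNA processing genes, uc007wbg was 9.46-fold higher and Khdrbs3, an RNA-binding splicing factor, 4.74-fold higher, a pair difference of 1.00 (SD 0.04), or 0.14 with quantile normalization and 0.55 with normexp background correction. AK042106 at Clk1, a kinase of splicing factors, had -0.82 and -0.85 in neonatal replicates 1 and 2 and -4.17, -5.32 and -4.60 in the adult replicates, a difference of -3.91. uc007lom at Psme3, a proteasome activator gene, was 9.25-fold higher. AK047541 at Trpm7, a cation channel joined to a kinase, was 16.6-fold lower. The genes of these last 3 pairs could not be tested because of outlier-marked spots.

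Several of the largest differences among members read on all 6 arrays belonged to genes without a usable probe. AK015258 had -6.26, -6.27 and -5.18 in the neonatal arrays, against 1.21, 1.37 and 2.08 in the adult replicates, 176-fold higher, while the probe of its paired accession, now listed as Klrb1, was at the floor on all 6 arrays. uc008wqw at Fam126a was 32.5-fold higher. BC003765 at Galnt3, which starts O-linked sugar chains on proteins, was 27.6-fold higher. Each of these lncRNAs was higher on every adult array than on any neonatal array, and none of the 3 genes could be tested. On the lower side, AK082703 at Tacc2, a centrosome protein gene, was 11.1-fold lower and its gene 4.22-fold lower, a pair difference of -1.29 (SD 0.16), or -0.027 with normexp background correction.

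Other members were read at 1 age only. uc007djs at Cd247, the zeta chain of the T cell receptor complex, had 2.38 and 2.37 in adult replicates 1 and 2 and stood at the floor on all neonatal arrays, at least 726-fold higher. Its gene probe was at the floor on all 6 arrays. AK153559 at Trim12a, a tripartite motif gene, had -3.13, -3.21 and -3.02 in the neonatal replicates, against the floor in the adult replicates, at least 13.1-fold lower. AK045553 at Nisch, the imidazoline receptor candidate nischarin, was at least 10.2-fold lower and its gene 5.95-fold lower. AK004353 at Osbpl6, an oxysterol-binding protein gene, was at least 10.2-fold lower and its gene was at the floor on all arrays.

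More than 1 member lay at 15 genes, 32 members in all, and members at 1 gene may share exons and often share the gene probe, so they do not count as separate evidence on the gene. At 3 of the 15 the members moved in different directions. Mdga2 has been given above. At Nav2, AK033357 had -1.32, -1.41 and -0.26 in the neonatal arrays, against -4.10, -4.22 and -2.94 in the adult replicates, whereas AK162444 had -6.16, -6.40 and -5.52 in the neonatal arrays, against -2.30, -2.59 and -1.93 in the adult replicates. These 2 members moved by -2.76 and 3.76, while the probes of their Nav2 accessions differed by -0.70 and -0.57. At Ubap2l, a gene of RNA granules, AK079890 was 5.74-fold lower, AK086314 at least 6.25-fold higher and AK164224 at least 7.75-fold higher, and the probe of the accession paired with AK079890 differed by -0.16. The pair difference of AK079890 was -2.19, but -3.65 without replicate 2, -0.73 without replicate 3 and -0.59 with normexp background correction.

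At the other 12 genes no tested member went against another. Both members at Ston1, an endocytic adaptor gene, were higher, uc008dvs at least 147-fold and uc008dvr at least 9.11-fold, beside 264-fold for the gene, and the sign of the pair difference of uc008dvs changed with the processing. At St3gal6, a sialyltransferase gene, BC030033 was at least 6.14-fold and uc007znw at least 10.9-fold higher. At Septin11, a filament-forming GTPase, AK031522 differed by -4.93 and uc008yec by -2.90 beside a gene difference of -5.02. The pair difference of the first was 0.09 (SD 0.35), or -0.15 without replicate 1, 0.72 with normexp background correction and 1.38 with quantile normalization. That of the second was 2.12 (SD 0.13), or 3.28 with quantile normalization, which is past the limit for parting in size. At Kcnma1, a calcium-activated potassium channel, AK162395 differed by -2.83 and AK048773 by -2.60 beside -2.04 for the gene.

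The remaining genes with several members had lower members beside genes that were near the floor or could not be tested in part. At Camk2d, a calmodulin-dependent kinase, AK042360 differed by -3.20 and AK032130 by -2.29, and the gene probes were near the floor at both ages. At Neo1, the receptor neogenin, AK077830 differed by -2.71 beside -1.44 for its gene, and AK036157 was at least 7.45-fold lower. At Hnrnpa1, an RNA-binding protein of splicing, NR_002883 differed by -2.88 and NR_002885 by -2.57. At Apool, a mitochondrial inner membrane gene, AK028953 differed by -2.61 and AK020156 by -2.10. At Zbtb20, a repressor with zinc fingers, AK052686 differed by -2.43 and its gene by -2.12. At Rbm39, a splicing regulator, AK080554 was 5.14-fold lower, and its other members AK155976 and uc008nmw could not be tested. At Zfp931, BC096373 was 7.16-fold lower and AK049261 could not be tested.

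The smallest differences among tested members were those of AK031784 at Txlng, uc009lxi at Zfp964 and uc008srw at Melk, a kinase of dividing cells. They were -1.32, -1.37 and -1.38, and each was well above background on all neonatal arrays and on no adult array, so the folds are bounds of 1.91, 1.98 and 2.08. Melk differed by -1.22.

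Other pairs moved together. uc007cnr and Rab7b, a GTPase of late endosomes, differed by -5.24 and -5.07, with a pair difference of -0.17 (SD 0.09). uc009ubc and Atrx, a chromatin remodeller on chromosome X, differed by -2.44 and -2.68, with a pair difference of 0.24 (SD 0.05). AK087461 had -6.14, -5.88 and -5.08 in the neonatal arrays, against -3.11, -3.09 and -2.66 in the adult replicates, and its gene Cdkn2c, an inhibitor of cyclin-dependent kinases, had 1.66, 1.85 and 2.48 in the neonatal arrays, against 4.18, 4.35 and 5.21 in the adult replicates. Both were higher in every adult array than in any neonatal array, with differences of 2.75 and 2.59 and a pair difference of 0.16 (SD 0.43, 3 replicate pairs). These 3 pairs were chosen after their values were seen.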

How the data were processed

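The deposited scanner files hold Cy3 spot signals in intensity units, background-subtracted and detrended within the array by Agilent Feature Extraction 10.5.1.1 per the file headers. The deposited matrix holds log2 values, which per the values equal the log2 of a floored signal less a constant of the array (100% of values within 0.001), and the authors made it with GeneSpring. All 6 arrays were mapped to their labels, with 0 columns not mapped. The authors' fold and p columns were used only through the membership of their tables.

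Signals were divided by the 75th percentile over non-control spots of the array, log2 transformed, and raised to 1 floor common to all arrays (-7.22), the highest of the 6 levels at which a signal of 5 lies. Outlier-marked spots were dropped, and probes needed 2 complete replicate pairs and an array well above background. limma 3.58.1 (R 4.3.3), tested on simulated data, was fitted to all lncRNA and mRNA probes with replicate number as a block, with Benjamini-Hochberg adjustment over all. Python 3.11.15, pandas 2.3.3, numpy 2.4.6 and scipy 1.17.1 did the rest. Whether replicate numbers pair the arrays was checked by correlating deviations from the age mean across probes: replicate 3 with 3 gave 0.59, 1 with 1 gave 0.34, 2 with 2 gave 0.25, 1 with 2 gave 0.32 and 2 with 1 gave 0.29, so replicates 1 and 2 are not told apart as pairs.

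Of several mRNA probes of an accession the one with the highest mean was used. The members and lists were chosen with earlier results of these data known. Named were the pair named by the study, all pairs parting in direction, the 10 largest parting in size (both only where each probe was well above background on all 3 arrays of at least 1 age), in each direction the 5 largest differences on fully read probes and the 3 largest bounds, genes with more than 1 member (1 of which is not reported here), the 3 smallest differences, and from each role list the largest in each direction. Alternatives covered scaling, floor, background correction, deposited values, blocks, outlier marks, filter, fold, gene probe and each replicate or array left out.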

Additional observations from a re-analysis of the deposited data

How the results depend on the processing

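The counts of lncRNAs called higher and lower, 81 and 145, kept within 1.5-fold with quantile normalization, no floor, other blocks, outlier-marked spots kept, a stricter filter on dim probes and a fold of at least 2. With normexp background correction (offset 50, run on median signals) they were 53 and 45, so the higher share of called members was 54.1% in place of 35.8%, and the genes called in the same direction, in the opposite direction and not called numbered 27, 2 and 33. The deposited log2 values gave 240 lower members, 127 same, 7 opposite and 136 not called, with all 343 members tested. Genes called in the same direction, 52 in the report, were 79 with quantile normalization, 100 with outlier-marked spots kept and 114 with a fold of at least 2, where 10 were opposite. The median difference of all tested probes was -0.21, and it moved to -0.77 with quantile normalization, -0.60 in the deposited values and 0.27 with normexp. The cause of these shifts was not tested.

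Leaving out a replicate pair or 1 array gave 51 to 81 higher members, 73 to 154 lower members, 6 to 53 genes in the same direction, 1 to 5 in the opposite direction and 27 to 88 not called. At the low ends fewer probes were tested, since the outlier marks on replicate 3 leave fewer values. Whether this accounts for the whole fall was not tested.

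With no replicate block the 5 counts were 81, 143, 51, 4 and 85, and with the scan date as a block 81, 146, 53, 4 and 85. The methods' paired test, chosen after seeing the data, gave 77, 115, 36, 3 and 80 without adjustment. With adjustment it gave 85 lower members, 17 same and 2 opposite.

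Pairs that part in direction, 10 in the report, numbered 11 to 15 under the other settings, and 9 or 10 of the same 10 pairs were among them each time. Pairs that part in size, 48 in the report, numbered 48 to 65, except with normexp, where they were 22 and 21 of them were among the 48. For the 133 of 180 pairs with 2 replicate pairs, leaving out a replicate is a weak check. It either leaves the value unchanged, where that replicate had no value, or leaves a single replicate pair.

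Some named pairs that did not part changed sign. Quantile normalization gave 0.12 for AK011429 and Ccnd2, 1.05 for uc008dvs and Ston1, -1.45 for uc008srw and Melk, and -0.68 for AK017377 and Rfx2. No common floor gave 1.21 for uc008dvs and Ston1 and -1.53 for uc008srw and Melk, the deposited values gave 0.55 and -1.04 for the same pairs, and outlier-marked spots kept gave -0.29 for uc008srw and Melk. Normexp gave 0.28 for AK014755 and Cald1, 0.67 for AK044510 and Lama1, 0.90 for AK045553 and Nisch, 0.079 for AK052686 and Zbtb20, -0.43 for AK017377 and Rfx2, and 0.020 for uc008osm and Hltf. Leaving out a replicate pair gave -0.15 to 0.34 for AK031522 and Septin11. The cause was not tested.

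Signal over background limits members read at 1 age only, whose folds are bounds. Replicate 3 lost the most spots to outlier marks, so 133 of 180 pair differences rest on 2 replicate pairs. Whether these marks fell more often on bright spots was not tested. Probe sequences and the mm9 genome were not used here.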
